A study of Mus musculus with 4 samples.

Results

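Genes of gastric secretion and of the trefoil family were followed through RNA-seq libraries of mouse mTEChi, the MHC class II-high subset of medullary thymic epithelial cells. They were chosen by name, as the RefSeq entries of Pgc, Gkn1, Gkn2, Gkn3, Tff1, Tff2, Tff3, Ghrl, Atp4a and Atp4b, and make up 10 of the 23003 genes of the count tables, with 1 RefSeq entry each. These cells, I-A/E-high and lacking CD45 and Ly51, were sorted from thymi of B6 mice aged 4 weeks, and each library pooled 4 mice. The experiment was done once and then repeated, every time with a library labelled WT and another labelled Aire-KO, the latter from mice carrying the Aire tm1.1Doi allele in both copies on the B6 background. The WT mice were bought and the Aire-KO mice came from another laboratory, so the source of the mice and the genotype cannot be told apart. The 4 libraries held 111077552 to 242862323 counts over all RefSeq entries. No label says more on the origin of the replicates, so each p-value measures the spread between 2 libraries of a genotype, which may in part be technical.

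Aire is the transcriptional regulator that lets mTEChi express many genes otherwise restricted to peripheral tissues, whose products are then shown to developing T cells. The stomach contributes several classic antigens of this kind. Chief cells secrete the zymogen encoded by Pgc. Surface mucous cells release TFF1 and the products of Gkn1 and Gkn2, and mucous neck cells release TFF2. Goblet cells of the intestine are the main source of TFF3. Parietal cells acidify the lumen with the proton pump made of the Atp4a and Atp4b products, the target of autoantibodies in autoimmune gastritis, and endocrine cells of the gastric wall secrete ghrelin, the product of Ghrl.

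Aire itself was read first as a check of the labels. Its most counted RefSeq entry, 1 of 13, was counted 87229 and 36597 times under the WT label and 200697 and 175884 times under the Aire-KO label. The counts are given for whole transcripts and for transcript parts that sum the coding exons before the last. They do not separate the part of the gene changed by the allele, and the labels could not be checked with them. All directions below are those of the labels. Of the mTEC markers, 0 of 8 were called in either direction by edgeR. With the experiment as a block, 3 (Cd74, Cd80 and Fezf2) were lower under the WT label. That fit called 10.4% of all RefSeq entries tested lower and 16.5% higher. The 8 mTEC markers summed to 11303 and 17767 CPM (counts per library total of 1e6 after TMM scaling) under the WT label and to 19119 and 23495 CPM under the Aire-KO label. Most of these sums came from Cd74 and H2-Aa together. Cd74 was at 6484 and 8874 CPM under the WT label and at 11716 and 14297 CPM under the Aire-KO label. H2-Aa was at 3130 and 6365 CPM and at 5932 and 6633 CPM. Markers of other cells were present at lower sums. Those of cortical TEC reached 258 to 612 CPM over the 4 libraries, those of thymocytes 21.8 to 34.8 CPM, those of dendritic cells and macrophages 276 to 514 CPM, and those of fibroblasts and endothelium 58.8 to 175 CPM.

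Stretches of sequence are shown for Pgc and the gastrokines, whose reads were nearly absent from the libraries labelled Aire-KO. Promoter windows of 300 bases (250 before and 50 after the annotated start) were taken from RefSeq on GRCm38.p6 and were found for 6 of the 10 genes, namely Pgc, Gkn1, Gkn2, Gkn3, Ghrl and Atp4a, with 9 windows in all. Among these, Pgc and Gkn2 held the TATA motif TATAAA, on the strand of the gene, at -31 and -29 relative to the start (position 0). Capitals mark the motif in windows of 30 bases at chr17:47726799-47726828 (plus strand) and chr6:87373324-87373353 (plus strand).
Pgc: agctcctgggtgTATAAAaggaaggagtcc
Gkn2: tcttaaagcccaTATAAAggccggacgctg
A match to TATAAA on either strand anywhere in the window was present in 13.6% of the 32851 promoter windows of the table, and a match between 40 and 15 bases before the start in 2.11%.

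The motif AGATAA, searched on both strands as a core bound by GATA factors, had 1 match in each of the 3 gastrokine promoters and none in the windows of Pgc, Ghrl and Atp4a. It was present in 11.2% of all windows. Capitals mark it below in windows of GRCm38.p6, at chr6:87350980-87351009 for Gkn1 (minus strand), chr6:87373135-87373164 for Gkn2 (plus strand) and chr6:87388922-87388951 for Gkn3 (minus strand), where it began at -82, -218 and -4 relative to the start.
Gkn1: ggagagggaagcAGATAAgccgtggactcc
Gkn2: tgcaaacctgagAGATAAacggagtgtttg
Gkn3: tttctggatcgtAGATAAccagtccctgag
These are matches of letters and not sites of binding. TGTTTAC, a forkhead motif searched on both strands, had 0 matches in the windows of these genes and was present in 3.65% of all windows. The windows of Pgc, Gkn1, Gkn2 and Gkn3 held 9, 7, 6 and 5 CG dinucleotides, those of Ghrl 1 to 3 and that of Atp4a 2, against a median of 7 (quartiles 3 and 20) over all windows.

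The comparison of the libraries labelled WT and Aire-KO asks which of these genes depend on Aire in mTEChi. Of the 10 genes, 6 were higher in the libraries labelled WT (Pgc, Gkn1, Gkn2, Tff1, Tff2 and Tff3), 0 were lower and 4 were not called, by edgeR's quasi-likelihood test at an adjusted p under 0.05. Over all 26790 RefSeq entries tested, 5.58% were called higher and 0.258% lower. All 10 passed the filter on low counts, and their median log2 fold change (WT over Aire-KO) was 5.61, beside -0.03 over all entries tested. Both libraries labelled WT exceeded both labelled Aire-KO for 9 of the 10 genes, all but Atp4a, against 28.4% of all entries. Without Atp4a and Atp4b, the other 8 genes summed to 99.6 and 217 CPM under the WT label, against 2.78 and 3.98 CPM under the Aire-KO label. In such bulk samples, fewer cells expressing a gene and less RNA per cell cannot be told apart.

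**Figure D1:**
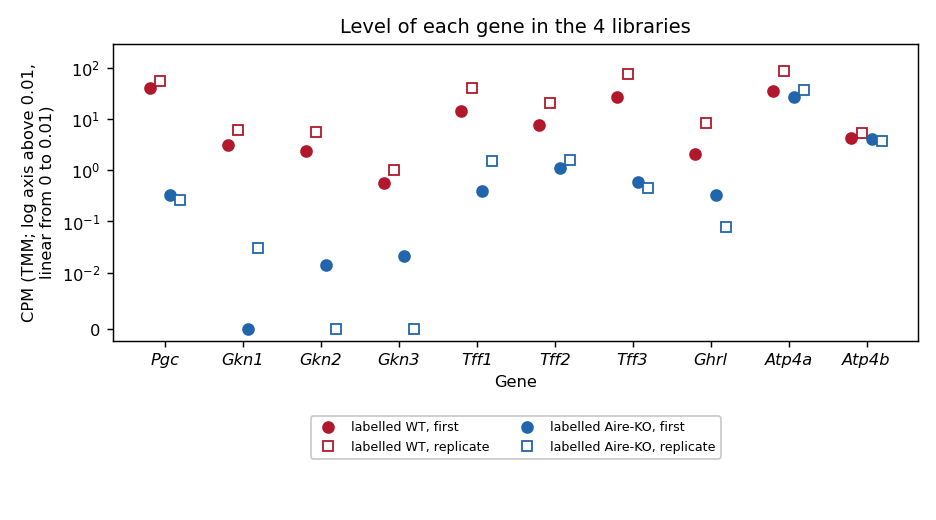
Level of each of the 10 genes in CPM (vertical axis, logarithmic above 0.01 and linear from 0 to 0.01) in the 2 libraries labelled WT (red) and the 2 labelled Aire-KO (blue). Filled circles are the first experiment and open squares the replicate experiment, and each point is 1 library. The red points lie above the blue points for every gene but Atp4a, where 36.7 CPM in the first library labelled WT lies under 37.9 CPM in the replicate library labelled Aire-KO.

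The gene of the chief cell zymogen, Pgc (chr17:47863791-47871432 of mm9, plus strand), was counted 9042 and 6640 times in the first and the replicate library labelled WT and 48 and 60 times in those labelled Aire-KO. As levels these were 41.3 and 55.7 CPM against 0.330 and 0.261 CPM. The groups were far apart and the libraries within each lay close together. The log2 fold change was 7.36 ± 0.49 (SE, n = 2 libraries per genotype; edgeR, adjusted p = 0.0176). Within the first experiment the level was 125-fold higher (94.2 to 170, exact 95% interval of counting error) and within the replicate experiment 213-fold higher (166 to 280). Intervals of this kind treat reads as independent molecules and cover counting error only.

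The gastrokine genes lie within 43.3 kb on chromosome 6 of mm9 and were nearly unread in the libraries labelled Aire-KO. Gkn1 (chr6:87295647-87300917, minus strand) was counted 686 and 737 times with the WT label and 0 and 7 times in the libraries labelled Aire-KO. A count of 0 allows up to 0.0206 CPM in the first library labelled Aire-KO and up to 0.0130 CPM in the replicate one, at 3 counts per library. Gkn1 was at least 152-fold higher in the first experiment and 203-fold higher (98.1 to 507) in the replicate experiment, with a log2 fold change of 8.02 ± 1.13 (SE, n = 2; edgeR, adjusted p = 0.0219), or 7.22 without the first library labelled Aire-KO.

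Gkn2 (chr6:87323359-87329488, plus strand), whose product pairs with TFF1 in human stomach, had 519 and 660 counts against 2 and 0. Its log2 fold change of 9.29 ± 1.20 (SE, n = 2; edgeR, adjusted p = 0.0189) was the largest point estimate of the 10, and its ratio was 172-fold (47.4 to 1426) in the first experiment and at least 424-fold in the replicate experiment. It was 8.56 on the log2 scale without the replicate library labelled WT and 8.08 without the replicate library labelled Aire-KO. Gkn3 (chr6:87333262-87338929, minus strand) was the lowest of the family, with 125 and 120 counts against 3 and 0. The libraries did not overlap, yet the log2 fold change of 6.36 ± 1.38 (SE, n = 2) missed the threshold (edgeR, adjusted p = 0.0514). With the experiment as a block, under which 16.5% of all entries were called higher and 10.4% lower, Gkn3 was called (adjusted p = 0.0062). Within the experiments its ratio was 27.7-fold (9.25 to 136) and at least 77.2-fold.

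**Figure D2:**
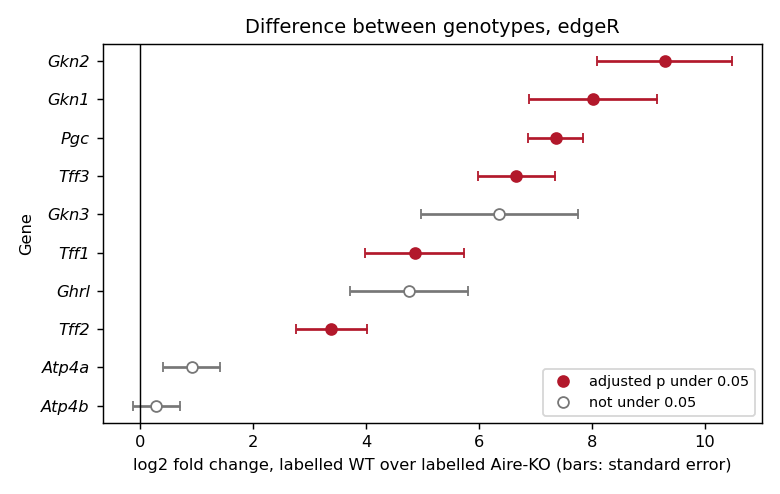
Log2 fold change of each gene, WT over Aire-KO as labelled (horizontal axis), with its standard error (bars), from edgeR over 2 libraries per genotype. Filled red points passed an adjusted p of 0.05 and open grey points did not. The estimates run from 0.29 for Atp4b to 9.29 for Gkn2.

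The 3 trefoil genes form a cluster of 39.7 kb on chromosome 17 of mm9, and all 3 were higher in the libraries labelled WT, to different extents. Tff3 (chr17:31262251-31266591, minus strand) had 6144 and 9173 counts against 85 and 105, or 28.1 and 77.0 CPM against 0.585 and 0.457 CPM. Its log2 fold change was 6.66 ± 0.68 (SE, n = 2; edgeR, adjusted p = 0.0176), or 5.77 without the replicate library labelled WT. The difference was 48.0-fold (38.7 to 60.1) in the first experiment and 169-fold (139 to 206) in the replicate experiment, more apart than counting error.

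Tff1 (chr17:31298341-31301998, minus strand) had 3158 and 4983 counts against 58 and 350. Its 2 libraries labelled Aire-KO differed 3.81-fold from each other in CPM, at 0.399 and 1.52, while both stayed far under the 14.4 and 41.8 CPM of the libraries labelled WT. The log2 fold change was 4.86 ± 0.88 (SE, n = 2; edgeR, adjusted p = 0.0361). It was 3.86 without the replicate library labelled WT, and 4.20 and 6.13 without the first and the replicate library labelled Aire-KO. Over 1657 bp Tff1 overlaps the locus of an antisense transcript, Gm15318, which is not among the entries of the count table, and reads from either strand cannot be told apart because the libraries do not mark strand. Tff2 (chr17:31277994-31281227, minus strand) had the most counts of the 3 in both libraries labelled Aire-KO, 161 and 375, beside 1668 and 2502 in those labelled WT. Its log2 fold change of 3.38 ± 0.63 (SE, n = 2; edgeR, adjusted p = 0.0369) was the smallest of the 6 genes called, with differences of 6.88-fold (5.85 to 8.13) in the first and 12.9-fold (11.5 to 14.4) in the replicate experiment. Without the replicate library labelled WT the log2 fold change was 2.46.

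The make-up of the trefoil transcripts, per kb of exon, was nearly the same in both libraries labelled WT. Tff3 gave 65.7% and 64.9% of the summed RPKM (reads per kb of exon and 1e6 counts), Tff1 20.0% and 20.8%, and Tff2 14.3% and 14.2%. In the libraries labelled Aire-KO, Tff2 gave 52.0% and 49.1%, Tff3 34.2% and 17.1%, and Tff1 13.8% and 33.8%. These shares depend on the exon length of Tff1, which is 775 bp in the files and 478 bp in the Gencode annotation of mm9. With the Gencode lengths, added after seeing the data, Tff3 gave 56.8% and 55.8% and Tff1 30.1% and 31.3% in the libraries labelled WT, and Tff2 gave 48.4% and 40.5% in those labelled Aire-KO, where Tff1 gave 21.3% and 46.1% and so passed Tff2 in the replicate experiment. The ratio of Tff2 to Tff3 in RPKM was 0.218 and 0.219 in the libraries labelled WT and 1.52 and 2.86 in those labelled Aire-KO, and 0.229 and 0.230 against 1.60 and 3.01 with the Gencode lengths. Its log2 was lower by 3.26 in the libraries labelled WT, which do not overlap with the others, in a two-sided exact permutation test with p = 0.333, the smallest that 2 against 2 libraries can give. These shares in the libraries labelled Aire-KO rest on 304 and 830 counts for the 3 genes together, beside 10970 and 16658 in those labelled WT.

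**Figure D3:**
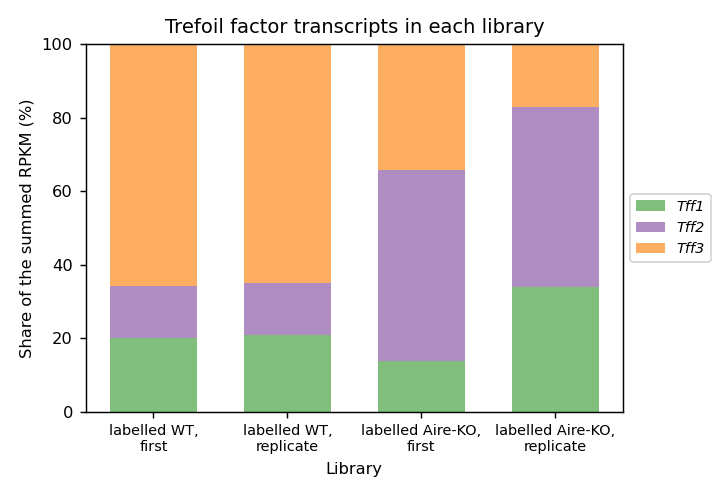
Share of Tff1 (green), Tff2 (purple) and Tff3 (orange) in their summed RPKM (vertical axis, percent), with 1 bar for each of the 4 libraries. Tff3 holds 65.7% and 64.9% in the libraries labelled WT, and Tff2 holds 52.0% and 49.1% in those labelled Aire-KO. Lengths are those of the files, and with the Gencode lengths Tff1 (46.1%) passes Tff2 (40.5%) in the replicate library labelled Aire-KO.

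Ghrl (chr6:113666113-113669874, minus strand), which encodes the precursor of ghrelin, varied most between libraries of a genotype. Its reads numbered 462 and 1029 in the libraries labelled WT and 47 and 18 in those labelled Aire-KO, or 2.11 and 8.63 CPM against 0.323 and 0.0783 CPM. The difference was 6.52-fold (4.83 to 9.01) in the first experiment and 110-fold (69.4 to 187) in the replicate experiment. With that spread the log2 fold change of 4.76 ± 1.04 (SE, n = 2) missed the threshold (edgeR, adjusted p = 0.0516) and passed it with the experiment as a block (adjusted p = 0.0018). In the replicate library labelled Aire-KO, 18 of its reads were assigned to the last exon or to the coding exons before it. Of these, 17 (94.4%, exact 95% interval 72.7 to 99.9) lay in the last exon, and the coding exons before it held 1 read. The study counted the end of the coding sequence together with the 3′UTR in the last exon. The share of the last exon was 32.6% in the first library labelled Aire-KO and 24.9% and 22.8% in those labelled WT.

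Neither subunit of the parietal cell proton pump passed the test, and both were well read under the Aire-KO label. Atp4a (chr7:31497228-31510554, plus strand), the catalytic subunit, reached 8038 and 10405 counts with the WT label and 4057 and 8706 in those labelled Aire-KO. The groups overlapped in CPM, at 36.7 and 87.3 against 27.9 and 37.9. The log2 fold change was 0.91 ± 0.50 (SE, n = 2; edgeR, adjusted p = 0.390). Within each experiment the library labelled WT was higher, by 1.31-fold (1.27 to 1.37) and 2.31-fold (2.24 to 2.37), and the fit with the experiment as a block called Atp4a (adjusted p = 0.0234).

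Atp4b (chr8:13386209-13396778, minus strand), the accessory subunit, had 940 and 654 counts against 602 and 884, or 4.29 and 5.49 CPM against 4.14 and 3.85 CPM. Its log2 fold change of 0.29 ± 0.42 (SE, n = 2) did not pass in either fit (edgeR, adjusted p = 0.806, and 0.581 with the block). Atp4a exceeded Atp4b per kb of exon in all 4 libraries, 3.29-fold and 6.12-fold in RPKM in those labelled WT and 2.59-fold and 3.79-fold in those labelled Aire-KO, and in each experiment the ratio was higher under the WT label (two-sided exact permutation test, p = 0.667, where 0.333 is the smallest that 2 against 2 libraries can give). Reads on the last exon, coding end and 3′UTR together, made up 53.8% to 66.2% of the Atp4b reads on the last exon and the coding exons before it. The last exon was 44.5% of the summed length of these parts. Its read density was 1.46 to 2.45 times that of the coding exons before it, beside medians of 1.30 to 1.57 over all entries of the 4 libraries.

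Per kb of exon, the 10 genes spanned a wide range in the libraries labelled WT. Tff3 led with 125 ± 77.9 RPKM (SD, n = 2), above 96.9% and 98.5% of all genes in the 2 libraries. Tff1 (39.6 ± 25.9 RPKM), Pgc (38.7 ± 6.41 RPKM), Tff2 (27.4 ± 17.1 RPKM), Atp4a (19.7 ± 10.6 RPKM), Ghrl (11.1 ± 9.19 RPKM), Gkn2 (5.57 ± 2.94 RPKM), Gkn1 (4.19 ± 1.77 RPKM) and Atp4b (4.07 ± 0.52 RPKM) followed, and from Tff1 to Atp4b no gene differed from the next by more than the larger SD of the pair. Gkn3 was lowest, at 1.09 ± 0.38 RPKM, under Atp4b by more than either SD. Within each of the libraries labelled WT, Tff2, Atp4a, Ghrl, Gkn2 and Gkn1 kept this order, at 15.3, 12.2, 4.58, 3.49 and 2.94 RPKM in the first and 39.4, 27.2, 17.6, 7.65 and 5.44 RPKM in the replicate one, whereas Tff1 and Pgc changed places. Atp4b lay above Gkn2 and Gkn1 in the first, at 3.70 RPKM, and under both in the replicate one, at 4.44 RPKM. The order of Gkn2 and Gkn1 depends on the length used, since the 1220 bp of Gkn1 include 508 bp of distal 3′UTR without a read in these libraries. On the coding exons before the last, Gkn1 had 1105 and 1188 reads per kb, above 794 and 1127 for Gkn2. All 10 had more CPM in the replicate library labelled WT than in the first, from 1.28-fold for Atp4b to 4.09-fold for Ghrl, and the genes are not independent measures of that library. In the libraries labelled Aire-KO the order was another, with Atp4a at 8.68 ± 2.43 RPKM and Atp4b at 2.71 ± 0.04 RPKM (SD, n = 2) above Tff2 at 2.19 ± 0.73 RPKM.

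Gkn1 and Gkn2 also had a proximal polyadenylation site (pA) in the last exon, so that the distal stretch of the 3′UTR between it and the distal pA (the d3′UTR) could be read apart. Nearly all of their reads ended before the proximal pA. On the 212 bp of its last exon ahead of the proximal pA, Gkn1 had 177 and 194 reads, and it had 0 and 0 on the 508 bp of its d3′UTR in the libraries labelled WT. At 3 reads, 0 allows a ratio of d3′UTR to upstream read density of up to 0.0071 and 0.0065. Gkn2 had 90 and 101 reads on 169 bp upstream and 2 and 0 on its d3′UTR of 105 bp. Its ratio was 0.0358 (exact 95% interval 0.0043 to 0.133) in the first experiment. In the replicate one it was at most 0.0478 at 3 reads (exact 95% upper limit 0.0599). Few positions of so short a stretch can hold a read of 50 bp. With lengths corrected for this, the ratio was 0.0476 in the first experiment and at most 0.0636 at 3 reads in the replicate one. Over all entries with at least 50 upstream reads and a d3′UTR of at least 100 bp, the median ratio was 0.498 and 0.416 in these libraries, and 0.971% and 4.04% of entries had no d3′UTR read. No upstream read of either gene was found in the libraries labelled Aire-KO, so their ratios are undefined there.

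The last 30 bases before each pA of mm9 are shown for both genes, with the polyadenylation hexamer AATAAA in capitals where a script found it on the strand of the gene. Positions are chr6:87296155-87296184 and chr6:87295647-87295676 for Gkn1 (minus strand) and chr6:87329354-87329383 and chr6:87329459-87329488 for Gkn2 (plus strand).
Gkn1 proximal: ttaaggctcAATAAAcccacgtggcagcac
Gkn1 distal: agttcaagaaatattatttactgttgaatg
Gkn2 proximal: agaagccaaAATAAAttcttcccaacattc
Gkn2 distal: tcaaaaatatatctgtaatgatatatttac
In both genes AATAAA began 21 bases before the proximal pA, and neither AATAAA nor ATTAAA was found in the window before the distal pA.

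**Figure D4:**
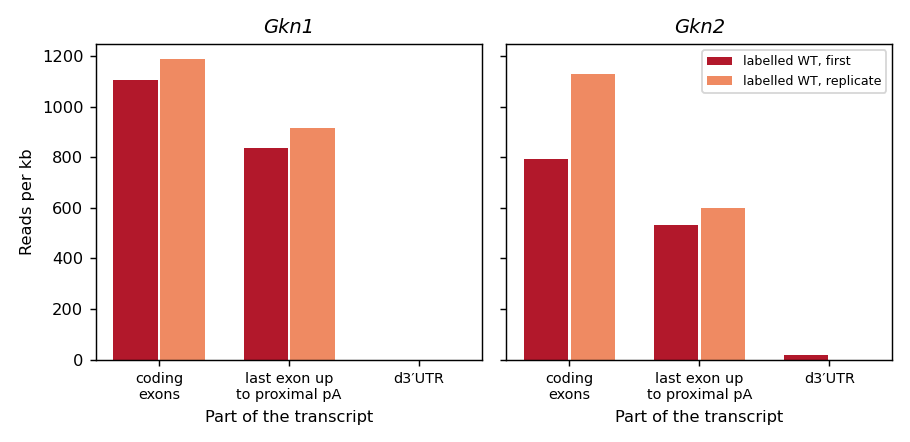
Reads per kb (vertical axis) on the coding exons before the last, on the last exon up to the proximal pA and on the d3′UTR of Gkn1 (left) and Gkn2 (right) in the first (dark) and replicate (light) library labelled WT. Coding exons before the last held 1105 and 1188 reads per kb in Gkn1 and 794 and 1127 in Gkn2, and the d3′UTR of Gkn1 held none.

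Genes next to the clusters were taken by position. Of them, Umodl1 and Bmp10 were called higher, where 5.58% of all entries tested were, and edgeR without the block called none of the others. Beside the trefoil cluster, Abcg1, a sterol exporter, had a log2 fold change of -0.25 ± 0.44 (SE; edgeR, adjusted p = 0.843), and Tmprss3, a membrane serine protease, -0.68 ± 0.56 (adjusted p = 0.606). Ubash3a, a regulator of T cell signalling, was at -0.41 ± 0.58 (adjusted p = 0.799). Umodl1, 115 kb from the cluster, was higher in the libraries labelled WT (2.60 ± 0.54, adjusted p = 0.0456). Beside the gastrokine cluster, Antxr1, an anthrax toxin receptor, was at -0.89 ± 0.37 (adjusted p = 0.243, and 0.02 with the block), D6Ertd527e at -1.35 ± 0.89 (adjusted p = 0.489) and Arhgap25 at 0.28 ± 0.63 (adjusted p = 0.886). Bmp10, a cardiac growth factor gene 40.1 kb away, was higher, with 49 and 36 counts under the WT label and 0 in both libraries labelled Aire-KO (edgeR, adjusted p = 0.0462).

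Other genes of the gastric cell types were read from 6 lists, made up of genes known from cells of the stomach or from goblet cells. Of their 81 genes, 26 were higher in the libraries labelled WT, 0 lower and 55 not called, with a median log2 fold change of 1.92. Beside this, 5.58% of all entries tested were called higher and 0.258% lower, with a median of -0.03. With the experiment as a block these shares of all entries were 16.5% and 10.4%. Of the genes of chief and neck cells, 5 of 9 were higher (median 3.30). Of the 4 most counted, the water channel gene Aqp5 (3.30 ± 0.52, edgeR, adjusted p = 0.0278) and the colipase gene Clps (3.84 ± 0.74, adjusted p = 0.0392) were higher, whereas the log2 fold changes of Mia (0.11 ± 0.52, adjusted p = 0.951) and of the chitinase gene Chia1 (1.08 ± 0.48, adjusted p = 0.278) did not pass. Pga5, Cckar and Lipf, chosen for naming after their values were seen, were the remaining genes called. Lipf, the gastric lipase gene, had 547 and 244 counts against 0 and 0 and was at least 121-fold and 157-fold higher at 3 counts per library.

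Of the surface mucous cell genes, 6 of 14 were higher (median 2.47). The most counted members were Muc1, a membrane mucin gene (0.34 ± 0.40, edgeR, adjusted p = 0.744), Sult1c2, a sulfotransferase gene (-1.25 ± 0.40, adjusted p = 0.13, and 0.0011 with the block), Fut2, a fucosyltransferase gene (0.28 ± 0.35, adjusted p = 0.765), and Anxa10, an annexin gene (0.09 ± 0.39, adjusted p = 0.943). None of these 4 passed in edgeR without the block, and Sult1c2 was called lower by DESeq2 (adjusted p = 0.0478). The 6 called, named after their values were seen, were Muc5ac, Psca, Mucl3, Agr2, Capn9 and Tspan8, of which Muc5ac, the secreted mucin partner of TFF1, had 7156 and 6466 counts against 47 and 71 (7.10 ± 0.52, adjusted p = 0.0176).

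Of the endocrine and ghrelin pathway genes, 5 of 14 were higher (median 1.74), and 9 with the block. Nts, the neurotensin gene, had 11365 and 7386 counts against 28 and 30 (8.47 ± 0.51, edgeR, adjusted p = 0.0176). Hdc, the histidine decarboxylase gene, had the most counts and a log2 fold change of -1.46 ± 0.36 (edgeR, adjusted p = 0.0695, 0.000537 with the block and 0.0044 in DESeq2). Chga, a granule protein gene, was at 1.05 ± 0.38 (edgeR, adjusted p = 0.180, and 0.0054 with the block) and Sct, the secretin gene, at -0.07 ± 0.46 (adjusted p = 0.964). The other called genes, named after their values were seen, were Sst, Gast, Cck and Pcsk2. The enzyme that acylates ghrelin, Mboat4 (1.72 ± 0.68, adjusted p = 0.218), and the ghrelin receptor, Ghsr (0.01 ± 0.70, adjusted p = 0.997), did not pass.

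Of the parietal cell genes other than the pump, 2 of 16 were higher, Aqp4 and Car2 (median 1.63), 11 with the experiment as a block and 4 to 8 when 1 of the 4 libraries was left out. The most counted were Kcnj15, a potassium channel gene (-0.35 ± 0.47, edgeR, adjusted p = 0.787), the anion exchanger gene Slc4a2 (-0.30 ± 0.41, adjusted p = 0.791), the nuclear receptor gene Esrrg (-0.13 ± 0.51, adjusted p = 0.940) and the potassium channel gene Kcnq1 (1.08 ± 0.41, adjusted p = 0.193, and 0.0038 with the block). Kcne2, the partner of Kcnq1 at the apical membrane, had 935 and 467 counts against 17 and 0 without passing (adjusted p = 0.0603, and 0.000315 with the block), and was named after its values were seen. Of the goblet cell genes, 3 of 10 were higher (median 2.41), 6 with the block and 5 to 6 without 1 library. Clca1 passed (2.80 ± 0.56, adjusted p = 0.0425), as did Muc2 and Retnlb, named after their values were seen. Fcgbp, which encodes a mucus protein that TFF3 binds in human tissue, had 754938 to 2072031 counts and -0.86 ± 0.41 (adjusted p = 0.312, and 0.0317 with the block), and Galnt12 and St3gal6 were at 0.19 ± 0.34 and 0.21 ± 0.36 (adjusted p = 0.845 and 0.838).

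Of the transcription factors of stomach and endocrine cells, 5 of 18 were higher (median 1.47), and 9 with the block and 9 with DESeq2, where 1 was lower each time. Over all entries, 16.5% were called higher with the block and 12.8% with DESeq2. Fewer of the 18 were higher when 1 library labelled WT was left out, and more when 1 labelled Aire-KO was. The 5 called by edgeR without the block were Hnf4a, Spdef, Pdx1, Neurog3 and Neurod1, named after their values were seen. The most counted, Sox21 (-1.77 ± 0.55, edgeR, adjusted p = 0.122, 7.7e-05 with the block and 0.0127 in DESeq2), Foxq1 (-0.13 ± 0.35, adjusted p = 0.901), Foxa1 (0.41 ± 0.52, adjusted p = 0.768) and Isl1 (0.31 ± 0.61, adjusted p = 0.865), did not pass in edgeR without the block. Among the markers of other cells, Cd209a of dendritic cells was higher in the libraries labelled WT and Col1a2 and Col3a1 of fibroblasts were lower, and edgeR without the block called no other marker of cortical TEC, thymocytes, dendritic cells, fibroblasts or endothelium. With the block, which called 16.5% of all entries higher and 10.4% lower, 2 markers of cortical TEC were lower (Ccl25 and Ly75). In the same fit, 2 of thymocytes were higher (Cd3g and Cd8a) and 3 of fibroblasts lower, Pdgfra included. DESeq2 also called Cd3g (adjusted p = 0.000253) and Pdgfra (0.0489). Cd209a had 181 and 151 counts against 4 and 6. Its list had a median log2 fold change of 0.94. Of its 6 markers, 4 were higher in both libraries labelled WT than in both others, against 28.4% of all entries. The list summed to 276 and 514 CPM against 345 and 357 CPM. Most of this was Lyz2, at 252 and 489 CPM against 326 and 345 CPM. The fibroblast and endothelial list summed to 67.2 and 58.8 CPM against 115 and 175 CPM. Of the thymocyte markers, 5 of 6 were higher in both libraries labelled WT than in both others, against 28.4% of all entries, with 0 called by edgeR without the block. Cd3g had 560 and 544 counts against 92 and 127 (edgeR, adjusted p = 0.0516, and 0.0027 with the block). The part of these cells in the differences of the gastric genes was not tested.

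**Figure D5:**
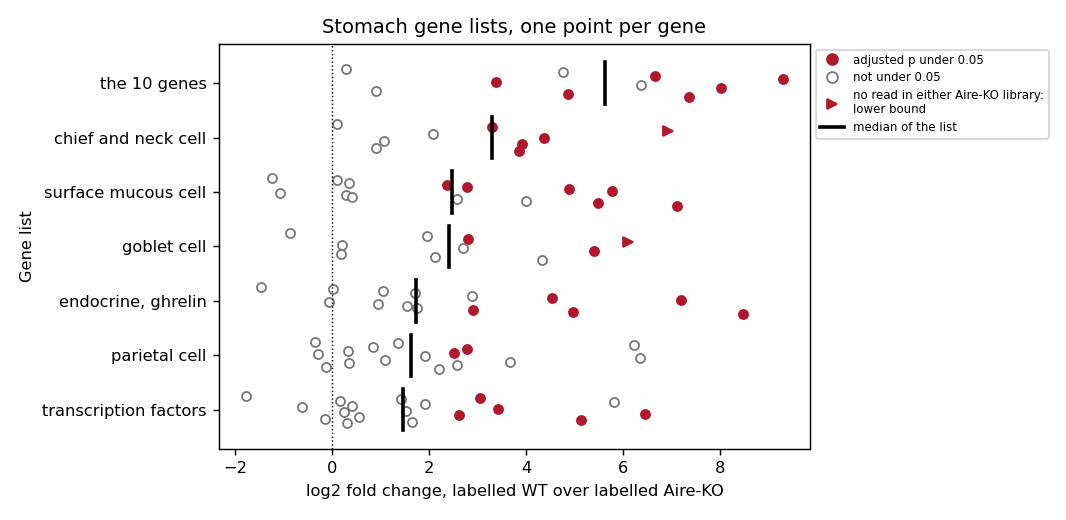
Log2 fold change of each gene (horizontal axis, WT over Aire-KO as labelled) in the 10 genes described and 6 lists of gastric and goblet cell genes. Filled red points passed an adjusted p of 0.05 in edgeR, open points did not, triangles are lower bounds for genes with no read in either library labelled Aire-KO, and black bars are medians. The medians run from 1.47 for the transcription factors to 5.61 for the 10 genes.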

How the data were processed

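RNA was polyA-selected and sequenced from 4 mTEChi libraries, each from a pool of 4 mice. Paired reads were cut to single 50 bp reads by the authors, passed through CASAVA and aligned to mm9 by Bowtie 1.0.0. Those lying wholly inside RefSeq exons were counted using bedtools. Raw counts were deposited per RefSeq entry and per transcript part, without normalization or strand. A read shared by entries of a gene is counted for each. Of 30794 entries, 29352 matched a symbol and 1442 did not.

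Genotypes were compared with edgeR 4.0.16 (TMM, filterByExpr, quasi-likelihood test, genotype only; R 4.3.3) over all entries, with Benjamini-Hochberg adjustment. The test was checked on simulated counts. TMM factors were 1.144 and 1.073 for the libraries labelled WT and 0.860 and 0.947 for those labelled Aire-KO. CPM used TMM-scaled library sizes, and RPKM the plain totals and the summed part lengths. A gene with several entries was represented by the most counted. Alternatives were DESeq2 1.42.0, other size factors, filters, 1 entry per gene, a block and leaving out each library.

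The experiment was taken as the block, since the study speaks of a replicate experiment. The deviations of same-numbered libraries from their group means correlated at 0.534 over 26790 entries. Positions are of mm9, pA windows were read from its genome at the part boundaries of the files, and promoters came from RefSeq on GRCm38.p6. The rule for names took the 10 genes, the 4 most counted of each list, the cluster neighbours and Aire. The genes and lists were chosen with earlier results of these data known. Muc6 of the chief and neck cell list was not analysed here.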

Additional observations from a re-analysis of the deposited data

How the results depend on the processing

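All 10 genes stayed higher in the libraries labelled WT under the 11 alternatives run for each, and the 6 genes called stayed called in all of them. The number called was 8 with DESeq2, with its size factors in edgeR, with library sizes alone and without a filter on low counts, Gkn3 and Ghrl being added each time, 9 with the replicate block, where Atp4a joined them, and 6 with a stricter filter or 1 entry per gene. It ranged from 7 to 8 when 1 library was left out (7 without the replicate WT library, where Gkn3 had an adjusted p of 0.0629 in edgeR), with the single library of an arm assumed to vary like the others. Over all entries, 1495 were called higher and 69 lower. These counts were 4428 and 2777 with the replicate block, 3438 and 603 with DESeq2, 2470 higher with library sizes alone, 143 lower without a filter, and 1524 to 3664 and 66 to 521 when 1 library was left out, the highest being 3664 higher without the first Aire-KO library and 521 lower without the replicate one. Library sizes alone shifted the overall median log2 fold change from -0.03 to 0.26. The 6 lists had 26 called higher and 0 lower, 42 and 3 with DESeq2, 49 and 4 with the replicate block, and 27 to 40 and 0 to 1 without 1 library (40 without the first Aire-KO library). The block thus moved counts over all entries by over 1.5 times. Lengths corrected for the read length, from Gencode exons, raised the WT mean RPKM 1.32-fold to 2.34-fold (Tff1 from 39.6 to 92.7) and another library total by 1.41-fold, with the same order of the 10 WT means, but under the Aire-KO label the corrected lengths put Tff1 (45.4%) above Tff2 (41.5%) among the trefoil genes of the replicate library. Precision is limited by 2 libraries per genotype and, for the gastrokines, by 5 and 7 reads in the libraries labelled Aire-KO.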
